A study of Mus musculus with 4 samples.

Results

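The genes described here are the nuclear genes for mitochondrial ribosomal proteins in macrophages recruited to the injured mouse lung. They were taken by name, as the symbols of the count table that begin with Mrpl or Mrps and a number, without pseudogene symbols marked -ps. The rule found 78 of the 16360 symbols in the table and used no measured value. RNA was sequenced from recruited alveolar macrophages, sorted for high CD64, high CD11b and low Siglec-F. The first genotype carried the R213G substitution of extracellular superoxide dismutase (EC-SOD), an antioxidant enzyme secreted into the matrix and encoded by Sod3, on both alleles, and had 2 libraries. The other genotype was wild type (WT), also with 2 libraries. All mice were males of 8 to 10 weeks, labelled as strain CD57/Bl6, and all had received bleomycin, a drug that injures the lung, through the trachea (100 µl at 1 U/ml) 7 days before sorting. An uninjured group was not analysed here, so every value below belongs to the injured state. Whether the libraries are from separate mice is not stated in the labels, and p-values therefore measure only the spread between these libraries.

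Mitochondria keep a small genome of their own and translate its messages on a separate ribosome, the mitoribosome. Its RNA is made inside the organelle, while its proteins are encoded in the nucleus, made in the cytosol and imported. The large subunit forms peptide bonds and releases the growing chain at the inner membrane, and the small subunit holds the message and decodes it. Some of its proteins have counterparts in bacteria and others are found only in mitochondria. Every message it reads in mammals encodes a subunit of the respiratory chain or of the ATP synthase, so the mitoribosome is needed for oxidative phosphorylation. Macrophages are known to shift between glycolysis and oxidative phosphorylation as they change state.

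By their known places in the particle, 51 of the 78 genes encode large-subunit proteins and 26 encode small-subunit proteins. Mrps18a and Mrps30 belong to the large subunit in spite of their symbols. The remaining gene, Mrps36, is now known to encode a subunit of the oxoglutarate dehydrogenase complex of the citric acid cycle, and it was kept because the rule goes by name. All 78 symbols matched the GENCODE vM21 annotation of GRCm38, all as protein-coding genes, on 17 chromosomes. Chromosome 11 held 11 of them and chromosome 17 held 8. Their messages are short. The principal transcript had a median length of 1302 bases (418 to 7300), against a median of 2957 bases over the protein-coding symbols of the table. A protein-coding gene started on the opposite strand within 1000 bases of 18 of the 78 (23.1%), against 10.3% of the protein-coding symbols. One such pair joins Mrps12, for a protein of the decoding site, to Sars2, for the mitochondrial seryl-tRNA synthetase, whose starts lie 172 bases apart.

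The promoters of these genes are shown next because sequence words known from nuclear genes for mitochondrial proteins were more common in them than in promoters at large. RefSeq windows (GRCm38.p6) of 250 bases before and 50 bases after the start were held for 69 of the 78 genes, as 75 windows. Each word was searched on both strands. The word bound by nuclear respiratory factor 1 (NRF1), made of GCGCA and GCGC set 1 base apart, was present for 13 of 69 genes (18.8%), against 11% of the 10739 table genes with a window. It was in 17.3% of the 75 windows, against 4.60% of all 32851 windows. The word CCGGAAG, the core of sites for ETS factors such as GABP, was present for 26 of 69 genes (37.7%) against 19.4% of table genes, and in 34.7% of windows against 8.86% of all windows. The word AAGATGGCG, bound by YY1, was present for 8 of 69 genes (11.6%) against 3.40%, and in 10.7% of windows against 1.4% of all windows. GGGCGG, the word of SP1, was rarer by gene, at 49.3% of these genes against 65.9% of table genes. It was more common by window, at 52.0% of windows against 35.7% of all windows. A gene was counted if any of its windows held the word, so shares by gene also depend on the number of windows per gene. The set of all windows was not limited to genes of the table. CCAAT was present for 39.1% of these genes against 42.6%, and in 40% of windows against 37.4%. TATAAA was present for 7.25% of these genes against 8.85%, and in 6.67% of windows against 13.6%. The windows of these genes had a median GC content of 58.7% and a median of 21 CpG pairs, against 52.7% and 7 over all windows. The ETS word ends and the YY1 word begins with the letters AAG, and the YY1 word ends with the GCG that opens the NRF1 word, so that these matches can overlap. A match describes the letters only and does not show that a factor binds.

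The 120 bases before the start are printed for 8 genes, with NRF1 and ETS words in capitals. Mrpl22, Mrpl3 and Mrpl52 show the ETS word, in Mrpl52 on the opposite strand. Mrpl12, Mrpl45 and Mrpl17 show the NRF1 word, in Mrpl12 on the opposite strand and in Mrpl45 at 2 places of this stretch. Mrpl20 and Mrps30 hold neither word in this stretch and are shown for comparison. Mrpl22 lies at chr11:58171544-58171663 (plus strand), Mrpl3 at chr9:105053148-105053267 (plus), Mrpl52 at chr14:54426789-54426908 (plus) and Mrpl12 at chr11:120484517-120484636 (plus). Mrpl45 lies at chr11:97315596-97315715 (plus), Mrpl17 at chr7:105811088-105811207 (minus), Mrpl20 at chr4:155802758-155802877 (plus) and Mrps30 at chr13:118387253-118387372 (minus).
Mrpl22: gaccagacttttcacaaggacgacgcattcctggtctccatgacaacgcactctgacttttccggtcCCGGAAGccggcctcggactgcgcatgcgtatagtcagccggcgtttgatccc
Mrpl3: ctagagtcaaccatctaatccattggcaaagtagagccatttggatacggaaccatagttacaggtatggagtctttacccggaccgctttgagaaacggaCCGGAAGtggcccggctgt
Mrpl52: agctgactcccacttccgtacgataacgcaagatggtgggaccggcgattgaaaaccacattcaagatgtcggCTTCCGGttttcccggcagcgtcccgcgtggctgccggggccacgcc
Mrpl12: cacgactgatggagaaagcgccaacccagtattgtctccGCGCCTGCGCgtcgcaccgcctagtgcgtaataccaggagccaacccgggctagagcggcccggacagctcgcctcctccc
Mrpl45: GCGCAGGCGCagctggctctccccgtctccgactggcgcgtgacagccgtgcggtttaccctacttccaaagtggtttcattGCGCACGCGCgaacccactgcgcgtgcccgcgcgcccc
Mrpl17: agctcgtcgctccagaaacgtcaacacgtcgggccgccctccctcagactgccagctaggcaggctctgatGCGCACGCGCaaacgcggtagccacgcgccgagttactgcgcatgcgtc
Mrpl20: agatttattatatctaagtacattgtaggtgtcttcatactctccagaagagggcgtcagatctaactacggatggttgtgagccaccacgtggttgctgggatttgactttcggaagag
Mrps30: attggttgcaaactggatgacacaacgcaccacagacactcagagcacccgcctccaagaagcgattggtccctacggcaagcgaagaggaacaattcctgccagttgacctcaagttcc

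In Mrpl3 the ETS word begins at position -19 from the start, in Mrpl52 at -47 and in Mrpl22 at -53, while the NRF1 word begins at -49 in Mrpl17, at -81 in Mrpl12 and at -120 and -38 in Mrpl45. Over the whole windows, the ETS word lay wholly before the start in 18 genes and wholly after it in 9, the NRF1 word in 10 and 3, and the YY1 word in 2 and 6, with no test of these counts. Fold changes between genotypes were also set beside these words. The median log2 fold change (R213G minus WT, all log2 values below run this way unless stated) was 0.14 over the 13 tested genes with the NRF1 word and 0.17 over the 55 without. It was 0.10 over the 25 tested genes with the ETS word and 0.19 over the 43 without, and 0.08 over the 8 with the YY1 word and 0.17 over the 60 without. These medians are descriptions with no test.

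The libraries held 33488569 and 35176210 counts in R213G 1 and 2 and 33573116 and 34111951 counts in WT 1 and 2. R213G 1 stood apart from the other 3 libraries. It had the fewest detected genes (13584, against 15047 in R213G 2 and 14598 and 15194 in WT) and the highest level of Gm42418, a noncoding gene listed as a sign of RNA quality, at 1689 CPM (counts scaled to the TMM-normalized library size) against 513 CPM in R213G 2 and 671 and 702 CPM in WT. Sod3 had 4 and 47 counts in R213G and 47 and 96 counts in WT. The R213G variant is a substitution, which a count per gene does not show, so these counts do not check the genotype labels. Macrophage genes were detected in every library, with 8 of 8 markers, among them Lyz2, Cd68, Csf1r and Fcgr1 (the gene of CD64). Their summed share of all counts was 2.49% and 2.89% in R213G, against 3.08% and 2.74% in WT. Most of it was Lyz2, at 19065 and 23281 CPM in R213G and 25101 and 21736 CPM in WT. Markers of monocyte-derived cells (6 of 6) summed to 11786 and 10560 CPM in R213G and 12321 and 14492 CPM in WT. Most of that sum was Fn1, and 2 of the 6 fold changes were positive. Of the markers of resident alveolar macrophages, 8 of 8 were in the table. Siglecf, the gene of Siglec-F used in the sort, was between 10.8 and 12.1 CPM in all 4 libraries, and the list summed to 296 and 323 CPM in R213G and 232 and 612 CPM in WT, with Chil3 at 198 and 177 CPM in R213G and 134 and 504 CPM in WT. Of the dendritic-cell markers, 5 of 5 were in the table, and their summed level was 136 and 43.5 CPM in R213G 1 and 2 and 152 and 39.3 CPM in WT 1 and 2, with Xcr1 at 0 in R213G 1 and WT 1. Endothelial markers (3 of 4 in the table) summed to 92.2 and 138 CPM in R213G and 131 and 114 CPM in WT, nearly all of it Vwf, and epithelial markers (5 of 5) to 77.5 and 47.7 CPM in R213G and 51.1 and 56.4 CPM in WT, nearly all of it Hopx. Sftpc, a defining epithelial marker, was at most 0.230 CPM. Col1a1, the 1 of 5 fibroblast markers in the table, was at most 0.0287 CPM. Neutrophil markers (4 of 7) summed to 65.9 and 68.5 CPM in R213G and 85.6 and 82.2 CPM in WT, most of it Csf3r. Markers of T and NK cells (5 of 6) summed to 67.8 and 81.3 CPM in R213G and 97.1 and 74.0 CPM in WT, nearly all of it Il7r. B-cell markers (2 of 4) summed to at most 2.21 CPM. The part of other cell types in the values was not tested.

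Nearly all mitochondrial ribosomal protein genes were expressed, most of them at moderate levels. Of the 78, 77 passed the filter on low counts. The mean over the 4 libraries ranged from 1.66 to 63.8 CPM, with a median of 25.2 CPM, and 69 of the 77 reached 10 CPM. The share of all counts that fell on the 78 genes was 0.220% and 0.185% in R213G, against 0.184% and 0.189% in WT. Mrpl53, for a large-subunit protein near the stalk, did not pass. It had 0 counts in both R213G libraries and 0 and 14 counts in WT. A count of 0 allows up to 3 counts in a library. In the annotation, 88.0% of its exon bases also lie in exons of Gm42688 on the same strand, which had 135 and 99 counts in R213G and 81 and 107 counts in WT, so that reads of Mrpl53 could have been left unassigned or given to that gene.

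Levels of different genes were compared per kilobase of the principal transcript. On this scale the 77 tested genes spanned 55.2-fold, but 63 of them lay within 3-fold of the median of 14.7 CPM per kb. The highest was Mrpl52, for a large-subunit protein found only in mitochondria, with 147 and 113 CPM per kb in R213G and 143 and 128 CPM per kb in WT. It stood above all other genes of the group in every library, and R213G and WT overlapped. Next came Mrps15, a small-subunit protein shared with bacteria, at 79.9 and 66.3 CPM per kb in R213G and 64.2 and 62.0 CPM per kb in WT. Mrps21, also of the small subunit, had 64.4 and 61.2 CPM per kb in R213G and 65.5 and 68.5 CPM per kb in WT. The libraries of Mrps15 and Mrps21 overlapped, so their order was not beyond the spread. Mrpl20 followed in the mean, with 69.7 and 44.7 CPM per kb in R213G and 42.4 and 42.7 CPM per kb in WT. That rank rested on R213G 1, since Mrpl42 was above Mrpl20 in the other 3 libraries, at 47.1 CPM per kb in R213G 2 and 45.8 and 52.9 CPM per kb in WT.

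The lowest mean was that of Mrpl23, whose product lines the exit of the peptide tunnel, with 3.13 and 2.95 CPM per kb in R213G and 1.97 and 1.56 CPM per kb in WT. It rested on 74 and 71 counts in R213G and 45 and 37 counts in WT. The pseudogene symbol Mrpl23-ps1, left out by the rule, had 4 and 7 counts in R213G and 8 and 4 counts in WT. Whether reads of Mrpl23 also match that copy was not tested. How reads with several places were treated is not given, so the level of Mrpl23 could be too low. Mrpl47, Mrpl48 and Mrps33 were the next lowest, with means of 2.61, 2.69 and 3.41 CPM per kb, and the libraries of all 4 genes overlapped, with Mrpl23 above Mrpl47 in R213G 1 and above Mrpl48 in R213G 2. Mrpl47 is the tunnel-exit counterpart of bacterial L29, Mrpl48 belongs to the central protuberance, and Mrps33 is a small-subunit protein. The order depends on the length used. With the length of all annotated exons, Mrpl52 stayed at rank 1 and Mrpl23 at rank 77, but Mrpl20 moved from rank 4 to rank 15 and Mrpl42 from rank 6 to rank 41.

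**Figure D1:**
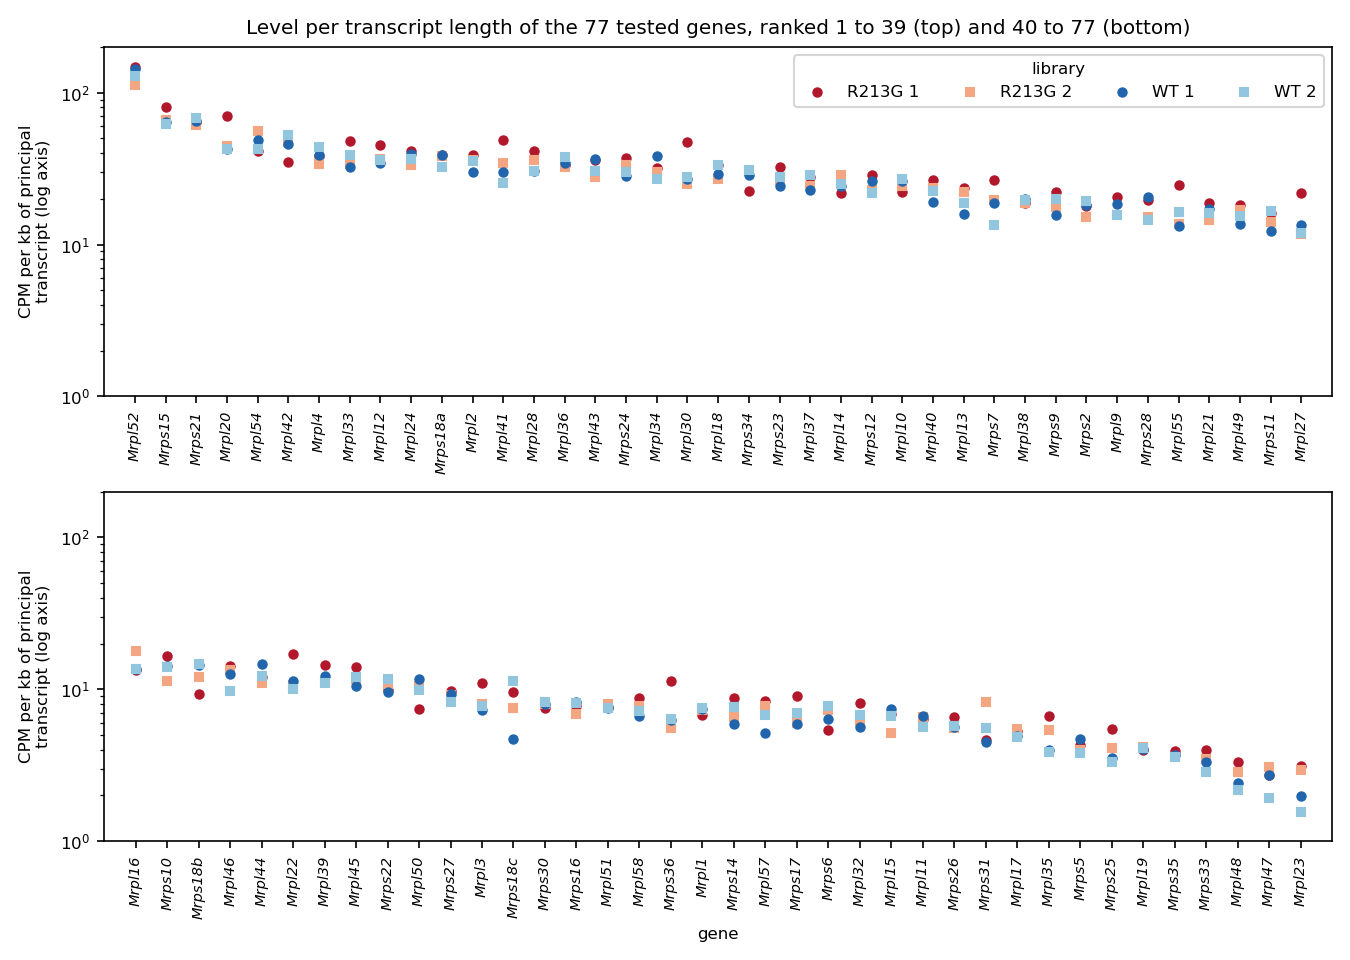
CPM per kilobase of the principal transcript (log axis) for each of the 77 tested mitochondrial ribosomal protein genes, ranked by their mean, with 1 point per library (R213G 1 and 2, WT 1 and 2). Mrpl52 stands above the rest at 113 to 147 CPM per kb, most genes lie within 3-fold of 14.7, and Mrpl23 has the lowest mean.

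No mitochondrial ribosomal protein gene differed between R213G and WT macrophages past the test. With edgeR's quasi-likelihood test and Benjamini-Hochberg adjustment over 13575 genes, 0 of 77 were called higher and 0 lower at an adjusted p under 0.05, against 0% of all tested genes in each direction. At an unadjusted p under 0.05 there were 3 of 77 (3.9%), all higher in R213G, against 2.22% of all genes in both directions, 0.936% higher and 1.29% lower. DESeq2 and limma voom also called 0 of the 77, with 2 and 3 at an unadjusted p under 0.05. The log2 fold changes were small, between -0.44 and 0.79, and 42 of the 77 were within 0.2 of 0, with a median SE of 0.23. The median was 0.10, against -0.0056 over all tested genes, and 52 of 77 (67.5%) were positive, against 49.1% of all genes. In 22 genes (28.6%) both R213G libraries lay above both WT libraries, against 13.7% of all genes, and in 10 (13%) both lay below, against 15.2%. In bulk libraries such as these, fewer cells of a type and less RNA per cell cannot be told apart.

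The positive median of these genes rested on R213G 1, though not every positive fold change did. The summed level of the 78 genes was 2155 and 1873 CPM in R213G 1 and 2 and 1867 and 1881 CPM in WT 1 and 2, or 2014 ± 200 CPM in R213G and 1874 ± 9.69 CPM in WT (SD, n = 2 each). R213G 1 was high, and the other 3 libraries lay together. R213G 1 was the highest library for 43 of the 77 genes (55.8%), against 31.2% of all genes. R213G 2 was the highest for 8, WT 1 for 11 and WT 2 for 15, against 22.4%, 24.8% and 21.6% of all genes. The gap between the R213G libraries was larger than the gap between genotypes: the mean log2 level was higher by 0.17 in R213G 1 than in R213G 2, by 0.11 in R213G than in WT, and by 0.03 in R213G 2 than in WT. In 22 genes both R213G libraries, and so also R213G 2, lay above both WT libraries. In such a gene the highest library is an R213G library by definition. It was R213G 1 for 20 of the 22. The same share over all genes was not counted, so this count alone does not set these genes apart.

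The fit was repeated without each library in turn. Without R213G 1, 37 of 77 fold changes were positive and the median was -0.016. Without R213G 2, 54 were positive and the median was 0.19. Without WT 1 or WT 2, 53 and 48 were positive, with medians of 0.10 and 0.12. In each of these fits 0 of the 77 genes passed the adjusted test. A genotype left with 1 library is assumed to vary like the other, which alone supplies the spread, so the p-values of these fits describe the libraries and not the genotypes.

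**Figure D2:**
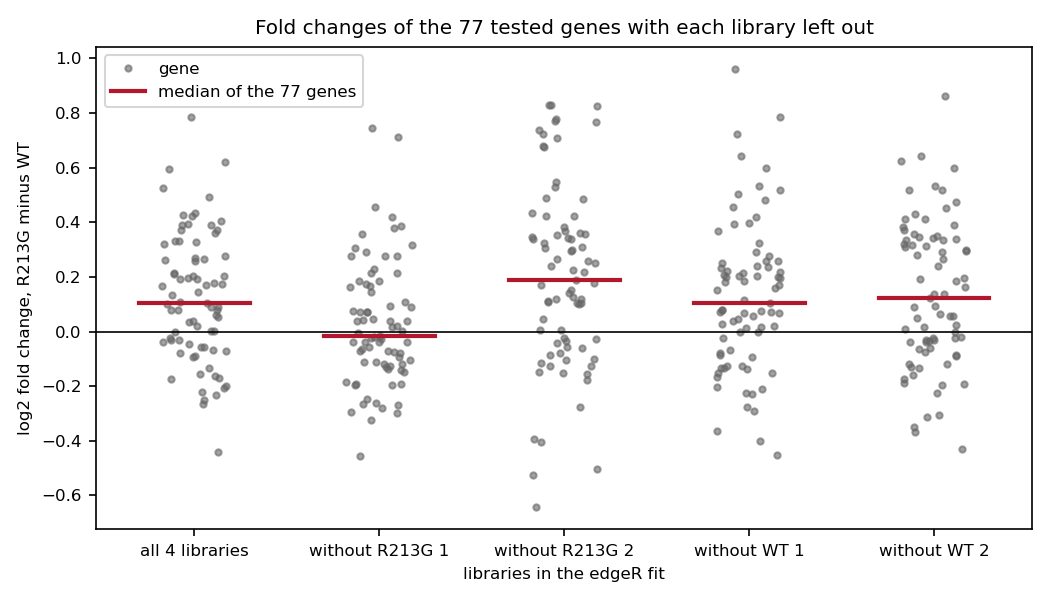
Log2 fold change (R213G minus WT) of each of the 77 tested genes in the edgeR fit of all 4 libraries and in the fits that leave out 1 library, with the median as a red bar. The median is 0.10 with all libraries, -0.016 without R213G 1 and 0.19 without R213G 2.

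**Figure D3:**
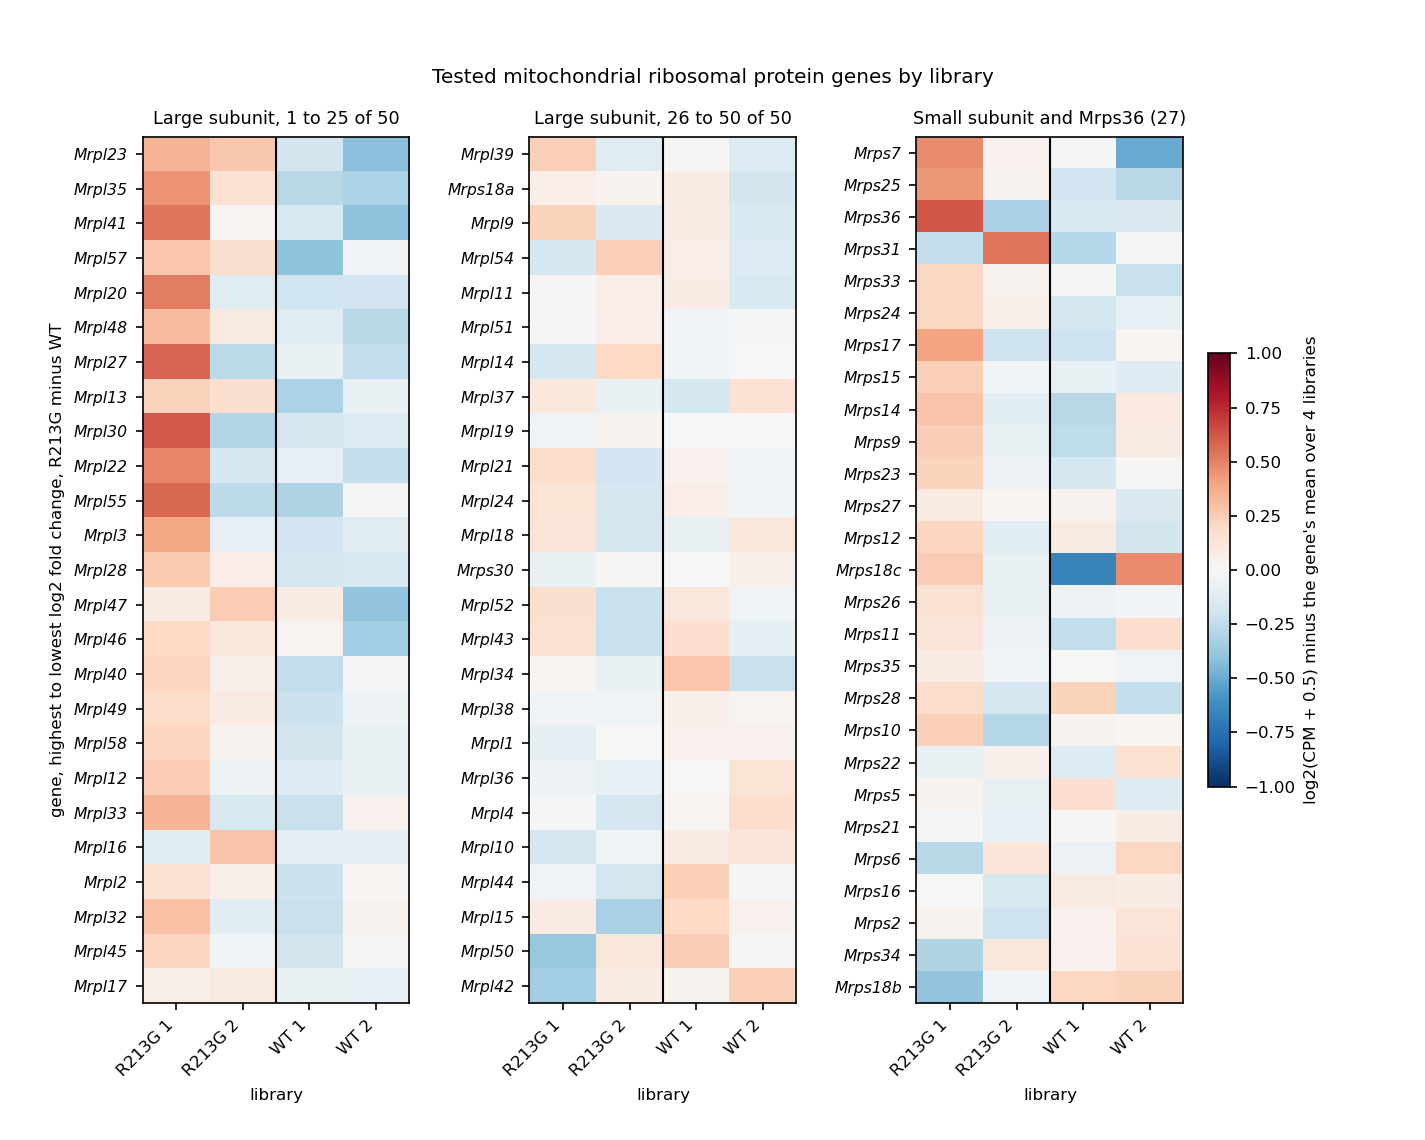
Log2(CPM + 0.5) of each tested gene in each library minus the mean of that gene over the 4 libraries, ordered by fold change within the large subunit (50 genes) and within the small subunit with Mrps36 (27 genes). The R213G 1 columns hold most of the high values, and 43 of 77 genes are highest there.

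Among the genes with the smallest p, Mrpl35, the counterpart of bacterial L35 in the large subunit (chr6:71812997-71826969, minus strand), had 24.8 and 20.0 CPM in R213G and 14.8 and 14.3 CPM in WT. Both R213G libraries lay above both WT libraries. The means were 22.4 ± 3.44 CPM in R213G and 14.6 ± 0.326 CPM in WT, and the log2 fold change of 0.62 ± 0.25 (SE) had an unadjusted p of 0.0321 in edgeR's test across all genes. It was 0.46 without R213G 1.

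Mrpl41 (chr2:24974117-24975098, minus strand) encodes a large-subunit protein found only in mitochondria. It had 38.1 and 26.6 CPM in R213G and 23.3 and 19.6 CPM in WT, with a log2 fold change of 0.59 ± 0.24 (edgeR, unadjusted p = 0.0330) that was 0.32 without R213G 1. The groups did not overlap, and R213G 1 was far above the rest. Mrps7 (chr11:115603925-115608036, plus strand), for a protein of the head of the small subunit, had 52.2 and 38.7 CPM in R213G and 36.9 and 26.3 CPM in WT. Here WT 2 was low and R213G 2 was close to WT 1, and the log2 fold change was 0.52 ± 0.22 (edgeR, unadjusted p = 0.0426), or 0.29 without R213G 1. These were the 3 genes with an unadjusted p under 0.05, and none was near the adjusted threshold.

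Mrps25, of the small subunit, came next with 33.2 and 25.1 CPM in R213G and 21.3 and 20.1 CPM in WT, a log2 fold change of 0.49 ± 0.23 that was 0.28 without R213G 1. On GRCm38, 69.8% of its exon bases lie opposite exons of Nr2c2, a nuclear receptor gene, and the strand setting of the counting is not given in the sources used here. Mrpl20, whose bacterial counterpart is needed early in assembly of the large subunit, had 53.3 CPM in R213G 1, against 34.1 CPM in R213G 2 and 32.4 and 32.6 CPM in WT. Its log2 fold change was 0.43 ± 0.23 with all libraries and 0.07 without R213G 1. Mrpl28, another protein shared with bacteria, had 43.9 and 38.3 CPM in R213G and 32.6 and 32.8 CPM in WT, and its log2 fold change of 0.33 ± 0.18 was 0.23 without R213G 1.

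The genes of smallest p in the other direction had larger p than the 6 above. Mrps18b had 10.1 and 13.1 CPM in R213G and 15.6 and 15.9 CPM in WT, a log2 fold change of -0.44 ± 0.28 (edgeR, unadjusted p = 0.149). Both R213G libraries were lower, R213G 1 was the lowest, and the log2 fold change was -0.27 without R213G 1. Mrpl10, the base of the stalk that recruits translation factors, had 37.7 and 41.3 CPM in R213G and 45 and 46.1 CPM in WT (-0.21 ± 0.16). Mrpl4, which in bacteria reaches into the peptide tunnel, had 49.1 and 43.9 CPM in R213G and 50.4 and 56.3 CPM in WT (-0.20 ± 0.16). The groups did not overlap for these genes either, but the gaps were small, and for Mrpl4 the log2 fold change was -0.12 without R213G 2 or without WT 2. Mrpl42 had 23.2 and 31.4 CPM in R213G and 30.5 and 35.2 CPM in WT. Mrpl15 had 28.8 and 21.5 CPM in R213G and 31.2 and 27.9 CPM in WT, and Mrpl50 had 15.8 and 22.4 CPM in R213G and 24.6 and 20.8 CPM in WT. The genotypes overlapped for Mrpl42, Mrpl15 and Mrpl50, and 1 library decided their size. Without R213G 1 the log2 fold change of Mrpl42 was -0.07, against -0.27 with all libraries, and that of Mrpl50 was -0.02, against -0.25. That of Mrpl15 was -0.46 without R213G 1 and -0.04 without R213G 2, against -0.23 with all libraries.

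The subunits were read separately. Over 50 tested large-subunit genes, 35 fold changes were positive with a median of 0.14, and over 26 small-subunit genes, 16 were positive with a median of 0.08, with 0 calls in each. The summed level of the large subunit was 1494 and 1307 CPM in R213G and 1306 and 1306 CPM in WT. That of the small subunit was 653 and 562 CPM in R213G and 557 and 570 CPM in WT. In both subunits R213G 1 was high and the other 3 libraries lay together. The 47 genes with a bacterial counterpart summed to 1394 and 1166 CPM in R213G and 1174 and 1186 CPM in WT. The 30 classed as found only in mitochondria summed to 753 and 703 CPM in R213G and 688 and 690 CPM in WT. That class holds Mrps18b, although this gene descends from bacterial S18. Against the mean of the other 3 libraries, R213G 1 was thus 1.19-fold higher for the genes shared with bacteria and 1.09-fold higher for the others, a difference that was not tested.

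Within the large subunit the genes were grouped by their place in the particle. Mrpl2, Mrpl3, Mrpl16 and Mrpl27, whose products lie near the centre that forms peptide bonds, summed to 116 and 98.3 CPM in R213G and 85.95 and 92.1 CPM in WT. Both R213G libraries were above WT, and all 4 fold changes were positive (median 0.26). In Mrpl2 and Mrpl3 both R213G libraries were above both WT libraries, and in Mrpl27 and Mrpl16 they were not. Mrpl2 had 39.8 and 37.2 CPM in R213G and 30.8 and 36.5 CPM in WT. Mrpl27, the counterpart of the bacterial protein that reaches into that centre, had 16.4 and 8.88 CPM in R213G and 10.2 and 9.03 CPM in WT, so R213G 1 alone was high. Mrpl16 was highest in R213G 2, with 15.5 and 20.6 CPM in R213G and 15.8 CPM in each WT library. Mrpl3, with an ETS word in its printed promoter, had 43.9 and 31.6 CPM in R213G and 29.1 and 30.8 CPM in WT.

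The central protuberance, the knob that faces the small subunit, was represented by 7 genes that summed to 178 and 150 CPM in R213G and 142 and 151 CPM in WT, with 5 fold changes positive and a median of 0.27. R213G 1 was the highest library for 6 of the 7, and the sum of R213G 2 lay within the range of WT. In 4 of the 7, Mrpl40, Mrpl46, Mrpl48 and Mrpl58, both R213G libraries were above both WT libraries. Mrpl55 carried the widest excess, with 23.2 and 12.8 CPM in R213G and 12.4 and 15.3 CPM in WT. Mrpl58, a peptidyl-tRNA hydrolase that became part of the ribosome, had 22.8 and 20.1 CPM in R213G and 17.2 and 18.6 CPM in WT. Mrpl38 was flat, at 26.7 and 26.6 CPM in R213G and 28.3 and 27.9 CPM in WT.

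In the stalk R213G 1 did not stand apart. Its 5 genes, Mrpl10, Mrpl11, Mrpl12, Mrpl53 and Mrpl54, summed to 142 and 143 CPM in R213G and 140 and 137 CPM in WT. Within it the genes went different ways. Mrpl12, the protein that contacts translation factors and whose promoter holds an NRF1 word, had 59.6 and 47.9 CPM in R213G and 45.5 and 47.7 CPM in WT. Mrpl54 had 25.0 and 33.5 CPM in R213G and 29.7 and 25.8 CPM in WT, and Mrpl11 had 19.3 and 20.1 CPM in R213G and 20.2 and 17.2 CPM in WT. Among these only Mrpl12 had R213G 1 as its highest library.

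Around the exit of the peptide tunnel, 7 genes summed to 169 and 148 CPM in R213G and 154 and 146 CPM in WT. Mrpl22, with an ETS word in its printed promoter, had 12.3 CPM in R213G 1, against 7.67 CPM in R213G 2 and 8.14 and 7.29 CPM in WT. R213G 1 stood alone for this gene. Mrpl45, which helps to hold the ribosome at the inner membrane and has an NRF1 word at 2 places in its printed stretch, had 33.9 and 28.4 CPM in R213G and 25.7 and 29.5 CPM in WT. Mrpl17, also with an NRF1 word, had 38.9 and 39.8 CPM in R213G and 35.8 and 35.4 CPM in WT, a log2 fold change of 0.14 ± 0.17. Mrpl17 and Mrpl51 were the 2 genes for which R213G 2 was the highest library and both R213G libraries were above WT. Mrpl24 had 55.2 and 44.5 CPM in R213G and 52.5 and 48.8 CPM in WT, and Mrpl44, with a domain like that of ribonuclease III, had 17.3 and 15.6 CPM in R213G and 20.9 and 17.4 CPM in WT. Mrpl23 had the highest fitted fold change of the 77, 0.79 ± 0.70, but at its low counts the SE was almost as large.

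In the small subunit, Mrps2, Mrps5, Mrps12 and Mrps24, whose products line the path of the message and the decoding site, summed to 119 and 102 CPM in R213G and 110 and 106 CPM in WT. The genotypes overlapped, and 2 of 4 fold changes were positive. Mrps12 had 25.4 and 20.2 CPM in R213G and 23.3 and 19.1 CPM in WT. Mrps24 had 36.8 and 33 CPM in R213G and 28.1 and 30.0 CPM in WT, without overlap. Mrps2 had 37.5 and 31.6 CPM in R213G and 37.8 and 39.98 CPM in WT, and Mrps5 had 19.2 and 17.7 CPM in R213G and 21.1 and 17.0 CPM in WT. R213G 1 was the highest library for Mrps12 and Mrps24 only.

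Mammals carry 3 genes that descend from bacterial S18, and their products sit at different places. They summed to 50.5 and 51.5 CPM in R213G and 53.1 and 51.8 CPM in WT. Mrps18a, now placed in the large subunit, had 34.3 and 33.6 CPM in R213G and 34.5 and 28.8 CPM in WT. Mrps18b, given above, was lower in R213G, with 30.5% of its exon bases opposite exons of Gm16279, a gene of at most 12 counts in a library. Mrps18c was the least even gene of the group. It had 6.12 and 4.80 CPM in R213G and 3.0 and 7.20 CPM in WT, so its widest difference lay between the WT libraries, at 209 and 167 counts in R213G and 99 and 247 counts in WT. On the same strand, 23.2% of its exon bases are shared with exons of Gm43511.

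The next 3 widest gaps within a genotype, among genes of at least 5 CPM, lay between R213G 1 and R213G 2. Mrps36, the oxoglutarate dehydrogenase subunit, had 7.91 and 3.88 CPM in R213G and 4.42 and 4.46 CPM in WT. Mrpl30, which shares its start region with Mitd1 (66 bases apart), had 45.8 and 24.2 CPM in R213G and 26.3 and 27.0 CPM in WT, and Mrpl27 was given above. For Mrps36, Mrpl30 and Mrpl27, R213G 1 was high and R213G 2 was below both WT libraries. Mrps31, of the small subunit, was the reverse, with 7.03 and 12.4 CPM in R213G and 6.81 and 8.36 CPM in WT, so that R213G 2 was high.

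A few genes hardly varied. Mrpl19 had 20.0 and 21.0 CPM in R213G and 20.3 and 20.5 CPM in WT, a log2 fold change of 0.00 ± 0.22. Mrpl51 had 26.1 and 27.6 CPM in R213G and 25.8 and 26.0 CPM in WT. Mrps30, the large-subunit protein whose printed promoter holds neither word, had 25.0 and 26.5 CPM in R213G and 26.4 and 27.2 CPM in WT. Together with Mrpl38 these had the narrowest spread over the 4 libraries among genes of at least 5 CPM. The sample size leaves an SE of 0.19 to 0.22 on the log2 fold changes of these 4 genes, so a small change was not detectable.

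Against the mean of the other 3 libraries, the median log2 difference of R213G 1 was 0.21 over the 77 genes, with 56 above 0, and -0.016 over all tested genes. R213G 2 against WT had a median of -0.0050, with 38 of 77 above 0. The excess of R213G 1 varied with transcript length across the transcriptome: over 11701 tested protein-coding genes its median difference was 0.13 for transcripts of up to 1 kb and -0.13 for those over 5 kb. Of the 77 genes, 46 (59.7%) have transcripts of up to 1.5 kb, against 15.4% of the protein-coding genes. Within the short class the median was 0.24 over these 46 genes and 0.09 over 1806 protein-coding genes. Within the longer class it was 0.12 over 31 genes and -0.02 over 9895 protein-coding genes. In both classes the median of the mitoribosomal genes was the higher. The part of transcript length in the R213G 1 values was not tested.

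**Figure D4:**
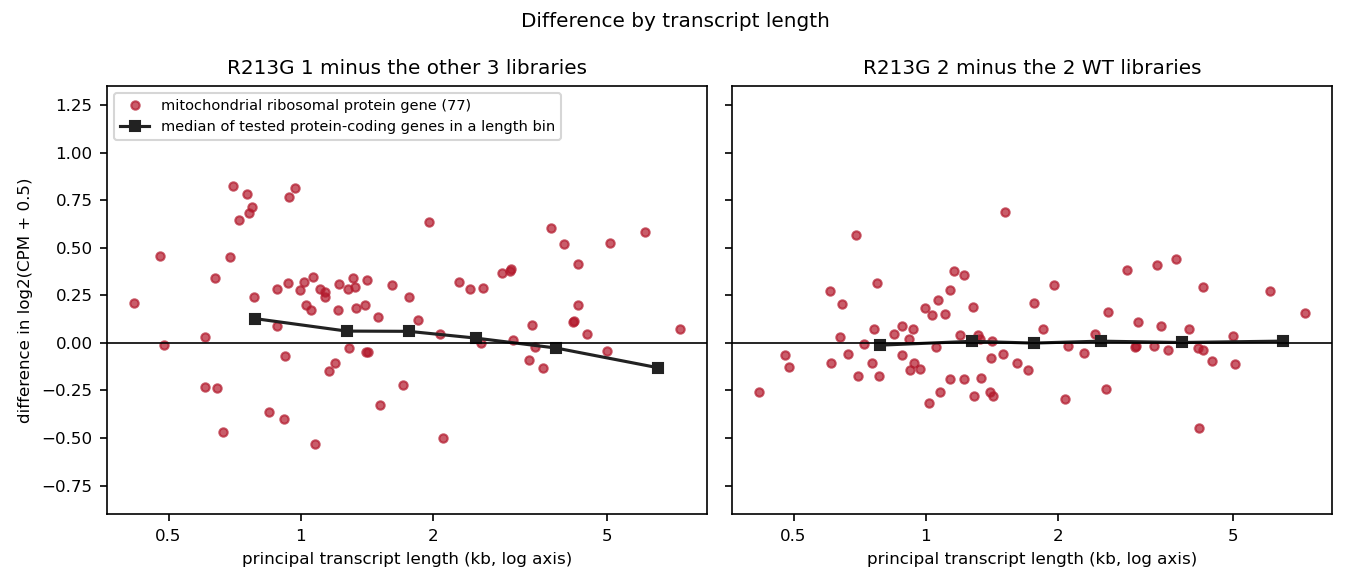
Difference in log2(CPM + 0.5) against the length of the principal transcript (kb, log axis) for the 77 genes (red points) and for all tested protein-coding genes as medians of length bins (black line), for R213G 1 minus the mean of the other 3 libraries (left) and R213G 2 minus the mean of WT (right). In the left panel the line runs from 0.13 in the shortest bin to -0.13 in the longest and most red points lie above it, and in the right panel the line is flat.

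Other genes of the same pathway were read from the same fit, and 0 passed the adjusted edgeR test on all 4 libraries in any list. At an unadjusted p under 0.05 there were 2 of 79 nuclear respiratory chain genes and 3 of 28 cell-cycle genes. The mitoribosomal proteins with other symbols, Dap3, Gadd45gip1, Chchd1, Aurkaip1 and Ptcd3, summed to 172 and 176 CPM in R213G and 173 and 157 CPM in WT, with 4 of 5 fold changes positive and a median of 0.08. R213G 1 was the highest library for 2 of the 5, Gadd45gip1 and Chchd1. Dap3, a GTP-binding small-subunit protein, had 38.0 and 33.4 CPM in R213G and 38.8 and 39.1 CPM in WT. Gadd45gip1, a large-subunit protein, had 30.1 and 27.0 CPM in R213G and 24.5 and 23.7 CPM in WT, with no overlap. Ptcd3, a small-subunit protein with RNA-binding repeats, had 20.2 and 26.9 CPM in R213G and 22.0 and 22.6 CPM in WT. Aurkaip1, also of the small subunit, had 65.5 and 73.3 CPM in R213G and 72.3 and 55.7 CPM in WT, and Chchd1 had 18 and 14.9 CPM in R213G and 15.9 and 15.7 CPM in WT. The genotypes overlapped for Ptcd3, Aurkaip1 and Chchd1.

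Of 17 tested mitochondrial translation factors, 11 fold changes were positive, with a median of 0.09 and sums of 373 and 358 CPM in R213G and 334 and 340 CPM in WT. Both R213G libraries were above both WT libraries, but without WT 1 the median was -0.02, with 8 of 17 positive. Mrrf, which recycles the ribosome after termination, had 13.2 and 10.8 CPM in R213G and 8.05 and 8.13 CPM in WT, a log2 fold change of 0.57 ± 0.32. Pdf, the deformylase that trims the first residue, was near the limit of detection, with 0 and 0.345 CPM in R213G and 1.18 and 0.758 CPM in WT.

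Of 27 tested assembly factors, 15 were positive with a median of 0.05, and the sums were 479 and 435 CPM in R213G and 438 and 448 CPM in WT. Mterf4, which brings the methyltransferase Nsun4 to the large subunit, had 3.54 and 6.04 CPM in R213G and 7.54 and 9.67 CPM in WT (log2 fold change -0.84 ± 0.42). Fastkd2, which binds the large ribosomal RNA, had 9.58 and 15.2 CPM in R213G and 17.9 and 18 CPM in WT (-0.53 ± 0.29). In both, R213G 1 was the lowest library, opposite to most of the ribosomal proteins.

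The mitochondrial aminoacyl-tRNA synthetases and related enzymes, which charge the tRNAs, had 12 of 20 positive fold changes and a median of 0.10. Their sum was 509 CPM in R213G 1, against 402 CPM in R213G 2 and 408 and 388 CPM in WT. Most of that excess was Lars2, listed with Gm42418 as a sign of RNA quality. It had 143 CPM in R213G 1, against 50.8 CPM in R213G 2 and 62.5 and 57.2 CPM in WT. It was uncalled with all libraries, and its adjusted p was 0.0303 without R213G 2 (edgeR, Benjamini-Hochberg), in a fit with 1 R213G library. Lars2 and Gm42418 were both highest in R213G 1, and the part of RNA quality in the R213G 1 values was not tested. Without Lars2, left out after its values were seen, the sums were 366 and 352 CPM in R213G and 346 and 330 CPM in WT. Sars2, the neighbour of Mrps12, had 7.38 and 12.3 CPM in R213G and 15.6 and 15.0 CPM in WT.

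Genes that copy and transcribe mitochondrial DNA leaned toward WT: 2 of 11 fold changes were positive, the median was -0.11, and the sums were 147 and 166 CPM in R213G and 173 and 181 CPM in WT. Polrmt, the mitochondrial RNA polymerase, had 18.3 and 28.6 CPM in R213G and 38.0 and 27.1 CPM in WT. Top1mt, a topoisomerase, had 10.5 and 5.89 CPM in R213G and 4.81 and 5.54 CPM in WT. The regulators of mitochondrial biogenesis had 3 of 8 positive fold changes and a median of -0.09. Among them Yy1, whose word was searched above, had 96.1 and 115 CPM in R213G and 128 and 110 CPM in WT, and Pprc1, a coactivator, had 67.2 and 81.0 CPM in R213G and 95.6 and 80.8 CPM in WT. The genotypes overlapped for Polrmt, Yy1 and Pprc1.

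The RNA of genes translated on the mitoribosome, of nuclear respiratory chain genes and of cytosolic ribosomal protein genes was compared last. The tested genes of the mitochondrial genome itself had a median log2 fold change of -0.03 over 7 genes. Of the 13 listed, only 8 were in the table, so their share of all counts is partial. It was 1.57% and 1.59% in R213G, against 1.49% and 1.70% in WT. The nuclear genes of the respiratory chain and ATP synthase, whose products assemble with the mitochondrial ones, had 50 of 79 positive fold changes, a median of 0.07 and sums of 7337 and 6610 CPM in R213G and 6618 and 6671 CPM in WT. R213G 1 was high and the other 3 libraries lay together, as for the mitoribosomal genes. Cytosolic ribosomal proteins had 57 of 80 positive fold changes and a median of 0.09. Their sums were 7544 and 5521 CPM in R213G and 6512 and 5694 CPM in WT, so R213G 1 was highest but WT 1 was also above R213G 2 and WT 2. Cell-cycle genes, 25 of 28 positive with a median of 0.29, were arranged otherwise, with 1684 and 2163 CPM in R213G and 1215 and 2049 CPM in WT: the highest library was R213G 2 and the lowest was WT 1. Their part in the mitoribosomal values was not tested.

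**Figure D5:**
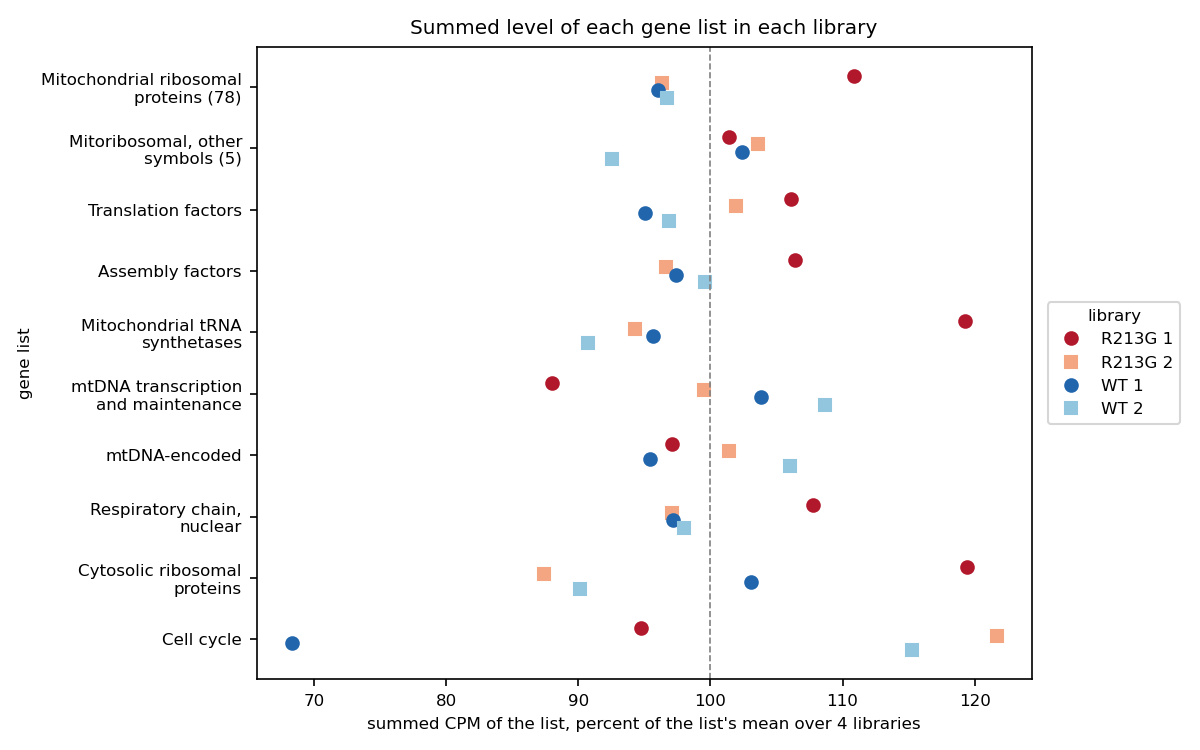
Summed CPM of each gene list in each library as a percent of the mean of that list over the 4 libraries, with R213G 1 and 2 and WT 1 and 2 as separate points. For the mitochondrial ribosomal proteins, the tRNA synthetases, the nuclear respiratory chain and the cytosolic ribosomal proteins R213G 1 lies to the right of the other 3 libraries, and for the genes of mitochondrial DNA transcription and maintenance it lies to the left.

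The counting leaves some genes uncertain. Same-strand overlap with exons of another gene covered at least 10% of the exon bases of 5 of the 78 genes, and opposite-strand overlap did so for 14. Over the 17 tested genes with such an overlap the median log2 fold change was 0.03, and over the 60 without it was 0.14. Mrps34, with 37.0% of its exon bases in same-strand exons and 63.4% opposite exons of other genes, had 20.8 and 27.9 CPM in R213G and 26.5 and 28.6 CPM in WT. Of the 18 genes with a divergent neighbour, all tested, 13 fold changes were positive with a median of 0.10, and of the 59 others 39 were positive with a median of 0.14.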

How the data were processed

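Per the labels' protocols, RNA of sorted recruited alveolar macrophages was isolated with a Qiagen RNeasy Micro kit and made into directional libraries with a Nugen Universal Plus mRNA kit. The values deposited by the authors are unnormalized whole counts, with symbols as rows and a column for each library. STAR 2.5.1b, featureCounts, Subread 1.4.4 and the build GRCm38 are named, per the submitters' processing notes. Which annotation release and strand setting were used, and how reads with several places were treated, is not given in the sources used here. The short sample names in the labels tied columns to samples. Every pair of libraries differed beyond sampling noise, with a chi-square per degree of freedom of 17.5 or more.

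Genes were tested in R 4.3.3 with edgeR 4.0.16 (quasi-likelihood, newer form, robust, TMM, filterByExpr), R213G against WT, over 13575 genes with Benjamini-Hochberg adjustment and a threshold of 0.05. Residual degrees of freedom were 2, and the biological coefficient of variation was 0.374. CPM values were TMM-normalized, and log2 levels used a pseudocount of 0.5. With 2 libraries a genotype, the smallest two-sided p of an exact permutation test is 0.333, so none was run. Intervals and the floor of 3 counts cover counting error only, since no molecular identifiers were used here. The script was tested on simulated counts, drawn with a smaller dispersion than was fitted here and with no library set apart. That test checks the code and does not show the power on these data.

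Positions came from GENCODE vM21, matched by symbol for 15852 symbols (96.9%), and promoters from RefSeq (GRCm38.p6). Levels between genes used the principal transcript. Genes were named by rule: the 6 members of smallest p in each direction, the 4 highest and 4 lowest per kilobase, the 4 of widest and 4 of narrowest spread, those below the filter, the S18, stalk, tunnel and decoding genes, and at most 2 of smallest p per other list. The rule names 41 members. The values of 1 gene that the rule names are left out of the text. Genes named outside this rule were picked with their values in view. The members and lists were chosen with earlier results of these data known. Each library was left out in turn, and the other alternatives were limma voom (limma 3.58.1), DESeq2 1.42.0, edgeR's legacy form, a replicate block, scaling by upper quartiles or by DESeq2 size factors, and a filter at 5 CPM on average or none.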

Additional observations from a re-analysis of the deposited data

How the results depend on the processing

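No mitochondrial ribosomal protein gene was called by the test as reported, under any of its 12 alternatives, or at an adjusted p under 0.1. Over all genes, DESeq2 called 1 and leaving out 1 library called 0 to 2 (2 without R213G 2). The median log2 fold change of the mitochondrial ribosomal protein genes ranged from -0.016 (without R213G 1) to 0.19 (without R213G 2) when 1 library was left out, and from 0.10 to 0.11 under the other 8 settings. In each direction the 6 genes with the smallest p held their sign and stayed uncalled in all 144 gene and setting pairs, though some came close to 0 (Mrpl50 -0.02, Mrpl15 -0.04 and Mrpl20 0.07 with 1 library left out). Medians of other lists, added after seeing the data, also moved with 1 library: cytosolic ribosomal proteins from -0.15 (without R213G 1) to 0.30 (without R213G 2), the nuclear respiratory chain from -0.03 (without R213G 1) to 0.11, mitochondrial translation factors from -0.02 (without WT 1) to 0.13, large-subunit genes from 0.02 to 0.20 and small-subunit genes from -0.03 to 0.18. The cause was not tested. Samples of the same number are tied only by the number in their names. Their deviations had a correlation of 0.0926. With 2 libraries a genotype this value is the same for both numbers by construction, and it cannot exclude a shared batch. With the replicate block the median was 0.11, with 51 of 77 positive and 298 of all genes at an unadjusted p under 0.05, and no call changed. With a median SE of 0.23 and 2 libraries a genotype, differences of the size seen here were mostly within the error.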
